A study of Mus musculus with 13 samples.

Results

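The mitochondrial ribosomal proteins are the nuclear-encoded proteins of the ribosome inside mitochondria. Their genes were taken as every gene whose platform symbol is Mrpl or Mrps followed by a digit, read by a probe set that names 1 gene. This gave 74 genes of the 18820 genes tested, 48 of the large subunit and 25 of the small subunit. Mrps36, the remaining gene, carries the family's name although its product belongs to the 2-oxoglutarate dehydrogenase complex. Mrps30 and Mrps18a are named after the small subunit and encode proteins of the large one. The symbols Mrpl24, Mrpl43, Mrpl53 and Mrps6 were read only by probe sets that name several genes and are not among the 74.

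RNA of epididymal white adipose tissue, the fat pad beside the epididymis, was measured on 13 Affymetrix arrays. The 4 groups were mice of the P2X7 knockout line B6.129P2-P2rx7tm1Gab/J on high-fat diet (4 arrays) and on chow (3 arrays), and wild-type C57Bl/6 mice, again on high-fat diet (3 arrays) and on chow (3 arrays). All mice were males of 18 weeks, fed for 12 weeks with 60% of energy as fat on the high-fat diet, against 13% on chow. The knockout allele had been backcrossed to B6 for 7 generations, it acts in the whole animal, and both lines were bred in the same facility. The series asked whether the ATP receptor P2X7 takes part in inflammasome activation in fat of obese mice. The labels number the arrays of a group but do not say that each comes from its own animal, which means that a p-value here reflects how far these samples differ, in part perhaps technically.

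Mitochondria keep a small genome that encodes membrane subunits of the respiratory chain and the ATP synthase, and the mitochondrial ribosome makes those proteins. All of its proteins are encoded in the nucleus, made in the cytosol and imported, and they assemble with ribosomal RNA transcribed inside the organelle. Many are relatives of bacterial ribosomal proteins, and others are found only in mitochondria. In white fat the mitochondria of adipocytes supply ATP and carbon units for making and breaking down lipid.

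Values are log2 intensities. Over the 18820 genes the median of each array was between 6.56 and 6.69, and the arrays of a group correlated over genes with Pearson's r between 0.993 and 0.997. Averaged over the 10 adipocyte markers, the log2 value was at least 10.59 on each array, above the array medians, in tissue labelled as fat. The probe set for P2rx7, the targeted gene, read 8.90 to 9.14 in knockout mice on high-fat diet, against 9.36 to 9.70 in wild-type mice on that diet. On chow it read 7.90 to 8.23 in knockout mice, against 7.91 to 8.41 in wild-type mice. No source used here places this probe set inside or outside the deleted sequence, and the genotype labels cannot be checked by it. Of the 74 ribosomal genes, 69 had a mean above 6.66, the median gene's mean.

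In P2X7 knockout mice on high-fat diet, 30 of the 74 genes were lower than on chow and 1 was higher, at an adjusted p below 0.05 in limma's moderated test over all 18820 genes. The falls were 1.12-fold to 1.53-fold and were led by Mrps26, Mrps34, Mrpl49, Mrps7 and Mrpl38. Of the members 40.5% fell and 1.35% rose, against 19.7% and 14.5% of all genes tested. Of the 69 members above the median gene's mean 42% fell and 1.45% rose, against 27.9% and 21.3% of the 9410 genes at or above it. The members' median change was -0.16 on the log2 scale and that of all genes was -0.06, with the estimate below 0 for 66 of the 74 members. In bulk tissue, less RNA per cell and fewer cells of a type cannot be told apart.

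Mrps26, a mitochondria-specific protein of the small subunit, was at 6.29, 6.22, 5.97 and 5.96 on the high-fat arrays of knockout mice, against 6.46, 6.92 and 6.77 on chow. All high-fat values lay below all chow values, although the gap between the nearest arrays was small, and the change was -0.61 ± 0.13 on the log2 scale (± gives the standard error throughout), with an adjusted p of 0.00225. In wild-type mice the same gene read 6.20, 6.45 and 6.24 on high-fat diet, against 6.33, 6.68 and 6.54 on chow, where the diets overlapped (-0.22 ± 0.14, adjusted p = 0.25). Mrps26 is one of the dimmest members and lies below the median gene.

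Mrps34, another mitochondria-specific protein of the small subunit, was at 7.67, 7.34, 7.44 and 7.13 on the high-fat arrays of knockout mice, against 7.86, 7.96 and 8.00 on chow (-0.55 ± 0.14, adjusted p = 0.00987). In wild-type mice it read 7.28, 7.71 and 7.37 on high-fat diet, against 7.55, 8.07 and 7.92 on chow (-0.39 ± 0.15, adjusted p = 0.0638). Its arrays were widely spread, and in wild-type mice the diets overlapped. Mrpl49, a mitochondria-specific protein of the large subunit, was at 9.22, 9.08, 9.16 and 8.92 on the high-fat arrays of knockout mice, against 9.58, 9.68 and 9.63 on chow, with no overlap and a change of -0.53 ± 0.08 (adjusted p = 0.000156). It was the only one of the 74 genes to pass in knockout mice when a change beyond 1.2-fold was asked for (adjusted p = 0.0205).

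The other leading falls in knockout mice were of a like size. Mrps7, the counterpart of bacterial S7, fell by 0.47 ± 0.08 (adjusted p = 0.00062), and Mrpl38, found only in mitochondria, fell by 0.45 ± 0.10 (adjusted p = 0.00257). Mrps15, the counterpart of bacterial S15, fell by 0.44 ± 0.08 (adjusted p = 0.000645) and Mrpl10, which anchors the ribosome's stalk, by 0.43 ± 0.08 (adjusted p = 0.000762). Mrps35 fell by 0.43 ± 0.10 (adjusted p = 0.00317), Mrps30, in spite of its name a large-subunit protein, by 0.41 ± 0.08 (adjusted p = 0.00204) and Mrps31 by 0.39 ± 0.08 (adjusted p = 0.00119). Mrpl51, found only in mitochondria, was at 9.20, 9.12, 9.28 and 9.20 on high-fat diet, against 9.61, 9.65 and 9.59 on chow (-0.42 ± 0.09, adjusted p = 0.00192). Its 4 high-fat arrays and its 3 chow arrays formed separate, narrow bands. Mrps5, the counterpart of bacterial S5, fell by 0.39 ± 0.07 (adjusted p = 0.00114). The other 18 falls lay between -0.35 and -0.16.

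Mrpl19, the counterpart of bacterial L19 at the interface of the subunits, was the 1 rise in knockout mice, at 8.19, 8.37, 8.17 and 8.19 on high-fat diet, against 7.99, 8.04 and 7.97 on chow (0.23 ± 0.07, adjusted p = 0.0202). The diets did not overlap, but the size rested in part on high-fat replicate 2, without which the change was 0.18 (adjusted p = 0.0604). Without chow replicate 1 it was 0.22 (adjusted p = 0.0617), and without chow replicate 3 it was 0.21 (adjusted p = 0.067). The 12 leading falls in knockout mice kept their calls when any 1 array was left out, and the count of falls ranged from 20, without chow replicate 2, to 32. Several smaller falls were less stable. The call was lost in 9 of these fits for Mrps2, in 6 for Mrpl17, and in 5 each for Mrpl14 and Mrpl58.

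In wild-type mice on high-fat diet, 16 of the 74 genes were lower than on chow and 2 were higher, by the same test. The falls were 1.14-fold to 1.42-fold. They were led by Mrps30, Mrpl49, Mrps15, Mrps5 and Mrpl47, and the rises were Mrpl19 and Mrps23. Of the members 21.6% fell and 2.7% rose, against 18.1% and 17.7% of all genes tested, so the share that fell was near the background and the share that rose was below it. Of the 69 brighter members 23.2% fell and 2.9% rose, against 26.2% and 26.3% of the 9410 brighter genes. The members' median change was -0.09 on the log2 scale, and that of all genes was -0.03. The estimate was below 0 for 54 of the 74 members.

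Mrps30, a mitochondria-specific protein of the large subunit, read 6.90, 7.11 and 6.86 in wild-type mice on high-fat diet, against 7.36, 7.63 and 7.38 on chow. Its values on the 2 diets did not overlap. It fell by 0.50 ± 0.09 on the log2 scale (adjusted p = 0.000593). Mrpl49, which also led in knockout mice, read 9.05, 9.24 and 8.97 on high-fat diet, against 9.55, 9.65 and 9.54 on chow. All 3 high-fat values lay below all 3 chow values, a fall of 0.49 ± 0.08 (adjusted p = 0.000429).

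In the small subunit the leading falls were Mrps15 and Mrps5, both relatives of bacterial ribosomal proteins. Mrps15 read 9.77, 9.74 and 9.70 on high-fat diet, against 10.02, 10.43 and 10.18 on chow, a change of -0.47 ± 0.08 (adjusted p = 0.0006). The high-fat arrays lay close together and the chow arrays were spread, with chow replicate 2 the highest. Mrps5 read 8.43, 8.49 and 8.39 on high-fat diet, against 8.75, 9.06 and 8.89 on chow, a change of -0.46 ± 0.08 (adjusted p = 0.000448). For both genes the diets did not overlap.

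Mrpl10, the stalk's anchor, read 10.04, 10.17 and 9.85 in wild-type mice on high-fat diet, against 10.50, 10.45 and 10.31 on chow. Mrpl11, whose bacterial relative lies at the base of that stalk, read 8.35, 8.57 and 8.40 on high-fat diet, against 8.85, 8.88 and 8.69 on chow. Both genes were lower on every high-fat array than on every chow array, with changes of -0.40 ± 0.08 (adjusted p = 0.00196) for Mrpl10 and -0.37 ± 0.08 (adjusted p = 0.00182) for Mrpl11. Mrpl35, a relative of bacterial L35, fell by 0.35 ± 0.07 (adjusted p = 0.000908), and Mrpl9 fell by 0.32 ± 0.07 (adjusted p = 0.00275). In the small subunit Mrps31 fell by 0.31 ± 0.08 (adjusted p = 0.00826), Mrps7 by 0.30 ± 0.09 (adjusted p = 0.0163) and Mrps35 by 0.30 ± 0.10 (adjusted p = 0.0344).

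Mrpl47, the relative of bacterial L29 at the peptide exit, read 6.41, 6.51 and 6.68 on high-fat diet, against 6.96, 7.11 and 6.90 on chow. It fell by 0.45 ± 0.13 (adjusted p = 0.0132). The remaining 4 falls in wild-type mice, named here after their values were seen, were Mrpl2 (-0.24, adjusted p = 0.0341), Mrpl45 (-0.23, adjusted p = 0.0449), Mrpl39 (-0.22, adjusted p = 0.0073) and Mrps18c (-0.19, adjusted p = 0.0254).

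Mrpl19 rose in wild-type mice too. It read 8.35, 8.21 and 8.42 in wild-type mice on high-fat diet, against 7.92, 7.85 and 7.90 on chow, a change of 0.44 ± 0.07 (adjusted p = 0.000366). The lowest high-fat array lay well above the highest chow array. Mrps23, a mitochondria-specific protein of the small subunit, read 9.15, 9.23 and 8.97 on high-fat diet, against 8.55, 8.91 and 8.93 on chow. The diets did not overlap, but chow replicate 1 was far below the other chow arrays, and the change was 0.32 ± 0.10 (adjusted p = 0.0193).

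Several wild-type calls lay near the threshold and were lost when 1 array was left out. That of Mrpl45 was lost in 8 of these fits, some of them without a knockout array. The call was lost in 4 fits for Mrps7, in 3 each for Mrps35, Mrpl2, Mrps18c and Mrps23, and in 2 for Mrpl47. Without chow replicate 2, the array with the highest members' mean, 10 genes fell in wild-type mice, and without high-fat replicate 2 there were 20. Without chow replicate 2 the calls of Mrps35 (-0.16, adjusted p = 0.146), Mrpl2 (-0.22, adjusted p = 0.107), Mrpl45 (-0.20, adjusted p = 0.134), Mrpl47 (-0.39, adjusted p = 0.0558), Mrps7 (-0.27, adjusted p = 0.0587) and Mrps18c (-0.18, adjusted p = 0.0743) were lost. Without chow replicate 1, Mrps23 was at 0.20 (adjusted p = 0.0751) and Mrps7 at -0.25 (adjusted p = 0.0661). The call of Mrps23 was also lost without high-fat replicate 1 (0.31, adjusted p = 0.0596) or 2 (0.27, adjusted p = 0.0662). The calls of Mrps30, Mrpl49, Mrps15, Mrps5, Mrpl10, Mrpl11, Mrpl35, Mrpl9, Mrps31, Mrpl39 and Mrpl19 in wild-type mice held when any 1 array was left out. Centring each array on the median of all genes brought the count of falls to 28 (37.8% of members, against 23.1% of all genes), fitting only the 2 wild-type groups brought it to 10, and asking for a change beyond 1.2-fold left 0.

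**Figure D1:**
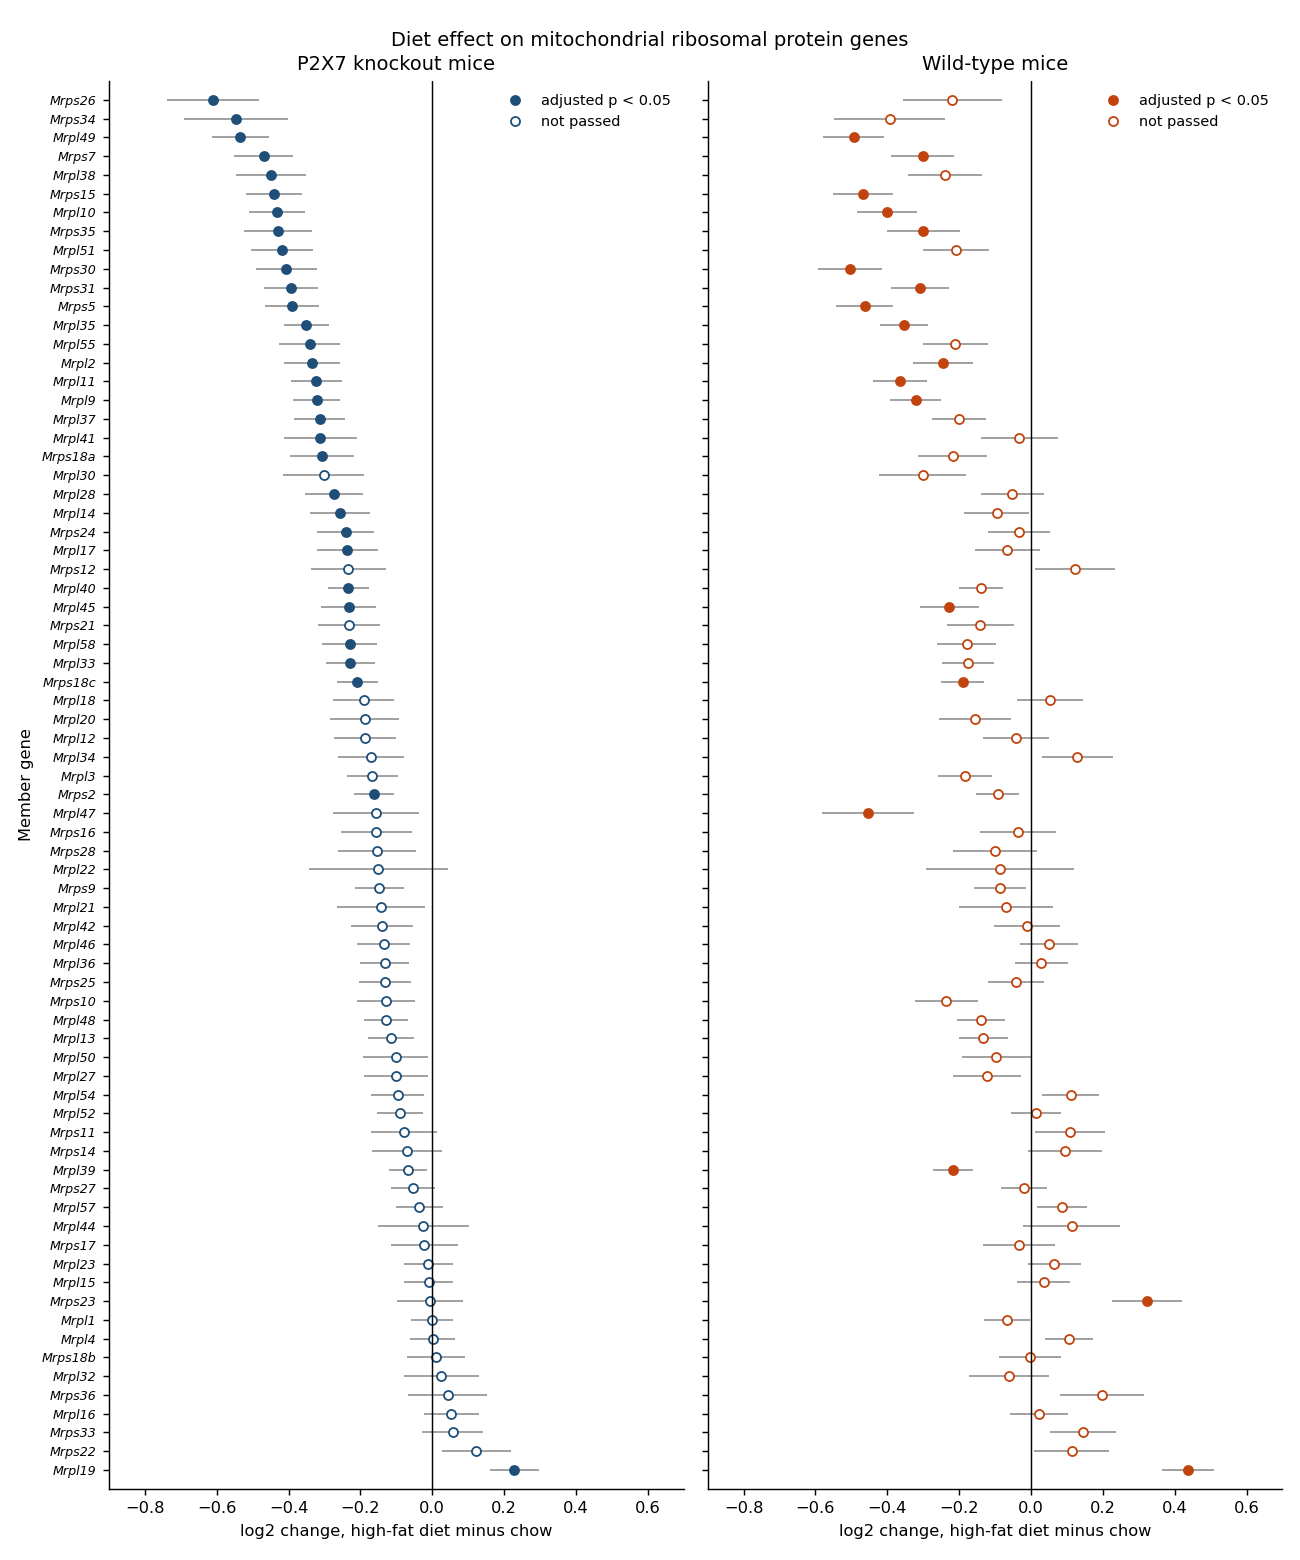
Log2 change with high-fat diet for the 74 genes, in P2X7 knockout mice (left) and wild-type mice (right), as high-fat diet minus chow. Points are limma estimates, lines are standard errors, filled points have an adjusted p below 0.05, and genes are ordered by the knockout estimate; 30 points on the left and 16 on the right are filled below 0, and 1 and 2 above it.

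**Figure D2:**
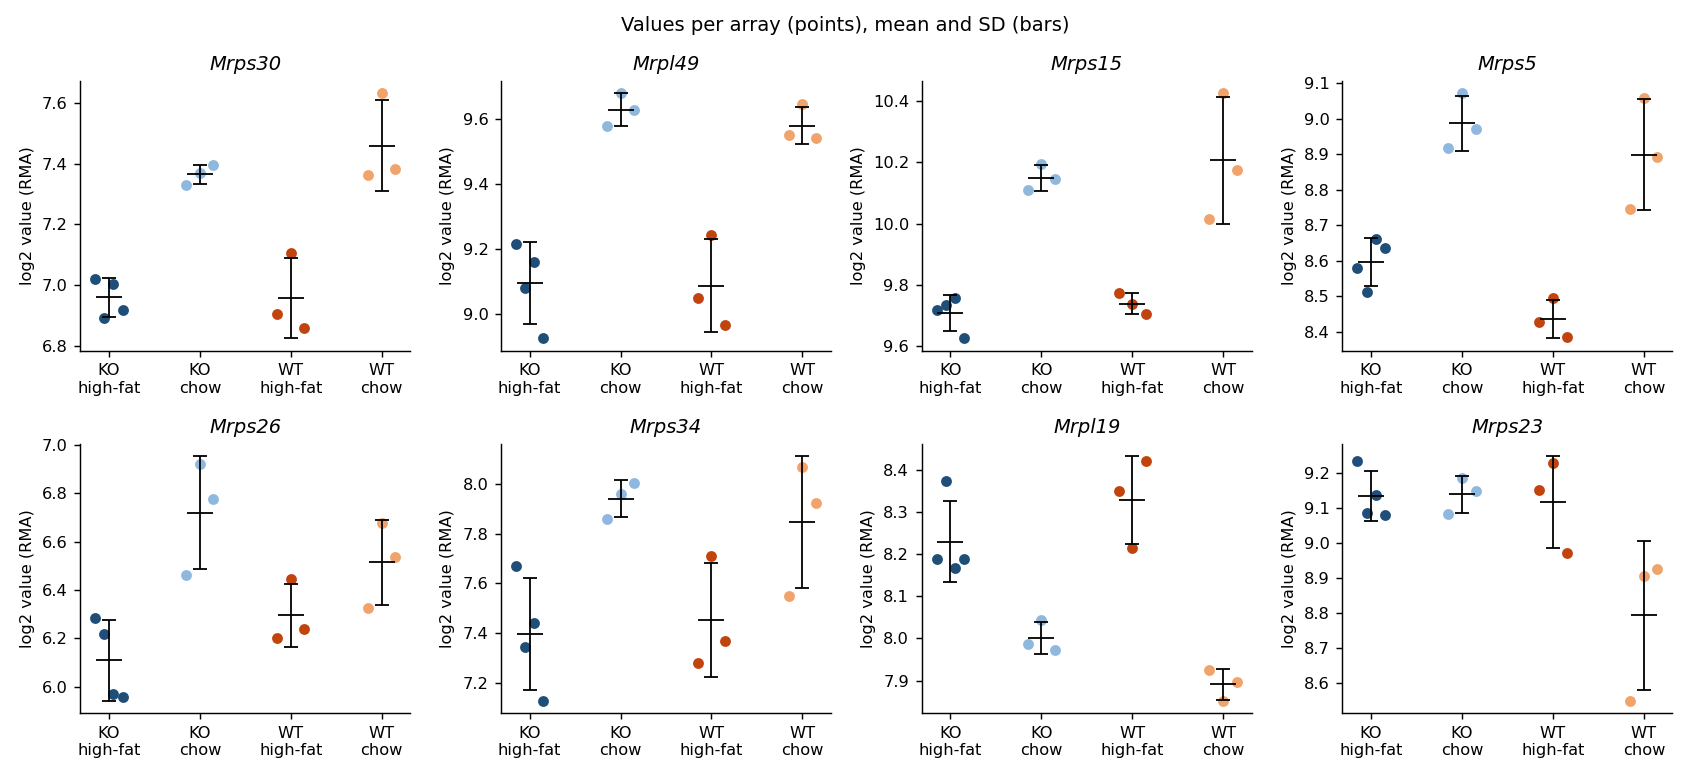
Log2 values on each array (points) for 8 genes, in knockout and wild-type mice on either diet, with the group mean and SD (black bars, n = 4, 3, 3 and 3); axes differ between panels and do not start at 0. Mrps30, Mrpl49, Mrps15 and Mrps5 were lower on high-fat diet in both genotypes without overlap, Mrps26 and Mrps34 overlapped in wild-type mice only, Mrpl19 was higher on high-fat diet in both without overlap, and Mrps23 overlapped in knockout mice.

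The RefSeq promoter table (GRCm38.p6, 250 bases before to 50 after each start) holds windows for 65 of the 74 genes. They were searched on both strands for short letter strings named after factors known to bind promoters of mitochondrial genes. The string GCGCATGC, named here for NRF1 (nuclear respiratory factor 1), was in 12.3% of the 65 members and in 3.05% of all 27025 genes with a window. The string CCGGAAG, for GABPA and other ETS factors, was in 36.9% of members and 9.93% of all genes, and AAGATGGC, for YY1, was in 18.5% of members and 3.19% of all genes. The E-box CACGTG was in 7.69% of members and 8.09% of all genes, and the ERR string TCAAGGTCA was in 0 members and in 0.466% of all genes. The ETS and YY1 strings can share 3 bases, which happened in 0 member windows. At least 1 of the first 3 strings was in 36 of the 65 members (55.4%), against 14.9% of all genes. The 27025 genes were not limited to the genes tested here or to genes as bright as the members. The excess therefore cannot be read as a trait of the family alone.

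The windows of 4 genes are shown because each holds 1 of these strings, in capitals. Mrpl49 (chr19:6057706-6058005, minus strand) has the YY1 string, which begins at base 267 of its window, and Mrpl10 (chr11:97041332-97041631, plus strand) has the NRF1 string on the opposite strand, from base 117. Mrps26 (chr2:130563507-130563806, plus strand) and Mrps23 (chr11:88204138-88204437, plus strand) have the ETS string on the opposite strand, from base 237 and base 266, with the gene's start after base 250.
Mrpl49: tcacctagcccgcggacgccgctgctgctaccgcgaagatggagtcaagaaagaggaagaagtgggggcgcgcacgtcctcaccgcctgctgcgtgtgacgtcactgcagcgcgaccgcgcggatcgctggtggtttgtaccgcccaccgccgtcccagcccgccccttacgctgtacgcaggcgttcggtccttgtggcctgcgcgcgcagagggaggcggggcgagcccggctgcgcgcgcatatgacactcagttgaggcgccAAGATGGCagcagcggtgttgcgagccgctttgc
Mrpl10: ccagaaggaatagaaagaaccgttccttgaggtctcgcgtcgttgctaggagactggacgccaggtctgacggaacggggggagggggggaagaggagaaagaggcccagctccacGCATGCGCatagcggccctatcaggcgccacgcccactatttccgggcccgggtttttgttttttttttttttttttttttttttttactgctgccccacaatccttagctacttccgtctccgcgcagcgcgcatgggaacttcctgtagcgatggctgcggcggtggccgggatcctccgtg
Mrps26: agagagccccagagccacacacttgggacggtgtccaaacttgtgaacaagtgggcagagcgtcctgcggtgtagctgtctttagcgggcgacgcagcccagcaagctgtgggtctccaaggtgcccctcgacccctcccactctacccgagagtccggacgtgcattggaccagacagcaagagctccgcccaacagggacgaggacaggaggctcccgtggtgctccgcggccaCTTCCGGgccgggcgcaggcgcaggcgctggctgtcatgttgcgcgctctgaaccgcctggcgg
Mrps23: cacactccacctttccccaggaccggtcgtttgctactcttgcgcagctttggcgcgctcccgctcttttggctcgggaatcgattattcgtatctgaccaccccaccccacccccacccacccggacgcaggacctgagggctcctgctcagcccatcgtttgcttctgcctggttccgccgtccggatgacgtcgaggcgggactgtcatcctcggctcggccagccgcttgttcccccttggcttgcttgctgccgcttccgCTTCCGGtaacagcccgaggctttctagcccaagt
The windows of Mrps30, Mrps15 and Mrps5 held none of the 5 strings. Of the 29 members with a window that fell in either genotype, 5 held the NRF1 string (17.2%), 7 the ETS string (24.1%) and 6 the YY1 string (20.7%). Of the 36 members with a window that did not fall, 3 held the NRF1 string (8.33%), 17 the ETS string (47.2%) and 6 the YY1 string (16.7%). Of the genes whose windows are shown, Mrpl10 and Mrpl49 fell in both genotypes, Mrps26 fell in knockout mice and Mrps23 rose in wild-type mice. Whether the strings go with the diet response was not tested.

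The 2 diet comparisons share no arrays in their changes, but limma estimated each gene's spread over the arrays of all groups. Calls in the 2 genotypes are therefore not independent. In knockout mice Mrps2 kept its change of -0.16 without wild-type high-fat replicate 1 but lost its call (limma adjusted p = 0.0501). This call lay near the threshold and was lost in 9 of the fits that left out 1 array. Of the 30 genes that fell in knockout mice, 14 also fell in wild-type mice, which is 46.7% of the knockout list and 87.5% of the 16 on the wild-type list. The like overlap over all genes was not counted, so these shares cannot be read as a trait of the family. The 2 genes on the wild-type list alone were Mrpl47 and Mrpl39. The 16 genes that fell in knockout mice alone all had wild-type estimates below 0, with a median of -0.18. Estimates pointed the same way, below 0, for 52 of the 74 genes, and in opposite ways for 16. Taken singly, the knockout estimate was below 0 for 89.2% of members and 61.8% of all genes. The wild-type estimate was below 0 for 73% of members and 55.8% of all genes.

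The difference in the number of falls depended on the scaling. With the values as deposited, 30 members fell in knockout mice (40.5%, against 19.7% of all genes) and 16 in wild-type mice (21.6%, against 18.1%). With arrays centred on the median of all genes the counts were 31 in knockout mice and 28 in wild-type mice, and with arrays centred on the median of brighter genes they were 27 in either. Centring also moved the share of all genes that fell, as given above for wild-type mice. The centred counts are of members only and are not set against a background here. In the diet-by-genotype interaction, 0 of the 74 genes and 0% of all 18820 genes passed in limma, with 3 members and 1829 genes at an unadjusted p below 0.05. The members' interaction estimates ran from -0.39 (Mrps26, ± 0.19, adjusted p = 0.527) to 0.30 (Mrpl47, ± 0.17), with a median of -0.09 against -0.03 for all genes. Mrps23 had an interaction of -0.33 ± 0.13 (adjusted p = 0.472), with a change of -0.01 ± 0.09 in knockout mice (adjusted p = 0.973) beside 0.32 in wild-type mice. Its knockout arrays read 9.23, 9.08, 9.14 and 9.08 on high-fat diet, against 9.08, 9.19 and 9.15 on chow, where the diets overlapped. Mrps12, the counterpart of bacterial S12 in the decoding centre, had an interaction of -0.36 ± 0.15 (adjusted p = 0.483), and Mrpl34 one of -0.30 ± 0.13 (adjusted p = 0.501).

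For Mrpl47 the knockout arrays read 6.50, 6.64, 6.63 and 7.05 on high-fat diet, against 6.95, 6.77 and 6.87 on chow. High-fat replicate 4 stood above all chow arrays and the other 3 below them (-0.16 ± 0.12, adjusted p = 0.35). Without that array the change was -0.27 (adjusted p = 0.0404). Mrpl39, a relative of aminoacyl-tRNA synthetases, read 9.36, 9.43, 9.44 and 9.54 on the high-fat arrays of knockout mice, against 9.48, 9.53 and 9.52 on chow (-0.07 ± 0.05, adjusted p = 0.355). In wild-type mice it read 9.27, 9.24 and 9.25 on high-fat diet, against 9.47, 9.50 and 9.43 on chow. The knockout diets overlapped, and the wild-type bands were narrow and apart.

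**Figure D3:**
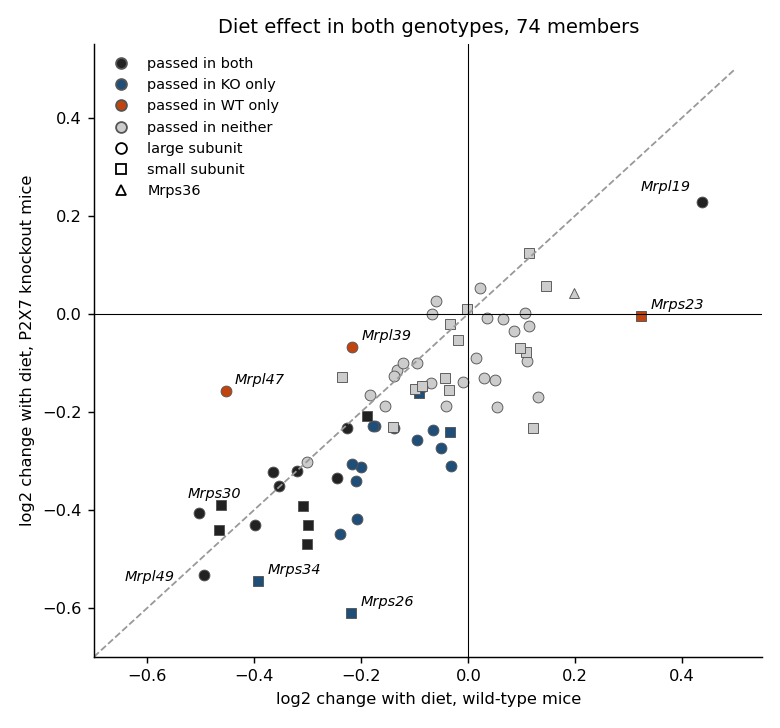
Log2 change with high-fat diet in knockout mice (vertical) against wild-type mice (horizontal) for the 74 genes; colour gives the genotype in which the gene passed, shape the subunit, and the dashed line equal change. Most points lie in the lower left, 52 with both estimates below 0, with Mrpl19 alone past the threshold upward in both.

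The genotypes were also compared on each diet. On chow 0 of the 74 genes passed (0.133% of all genes did), with 4 at an unadjusted p below 0.05 among members and 1810 among all genes. On high-fat diet 0 passed (0.0425% of all genes did), with 2 and 1394 at an unadjusted p below 0.05. The estimates, knockout minus wild type, ran from -0.13 to 0.35 on chow, with a median of 0.05 against 0.02 for all genes, and from -0.19 to 0.19 on high-fat diet, with a median of -0.03 against -0.01.

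The members with the smallest p on chow are given as values. Mrpl18, the counterpart of bacterial L18, which binds the 5S rRNA in bacteria, read 8.89, 8.91 and 8.95 in knockout mice, against 8.62, 8.75 and 8.37 in wild-type mice (0.33 ± 0.09, adjusted p = 0.265). Its groups did not overlap, and the wild-type arrays were the more spread. Mrps23 differed by 0.35 ± 0.10 (adjusted p = 0.272), Mrpl40 by 0.16 ± 0.06 (adjusted p = 0.405) and Mrpl34 by 0.21 ± 0.10 (adjusted p = 0.512). On high-fat diet Mrpl39 differed by 0.19 ± 0.05 (adjusted p = 0.518), Mrpl54 by -0.19 ± 0.07 (adjusted p = 0.632), Mrps5 by 0.16 (adjusted p = 0.674) and Mrpl52 by -0.13 (adjusted p = 0.71). Of 5 liver markers, 0 passed between the genotypes on chow in limma, and all 5 had an unadjusted p below 0.05, with a median difference of -1.90. Their mean log2 value over the 5 genes ran from 6.16 to 6.41 in knockout mice on chow, against 7.66 to 8.48 in wild-type mice on chow. It ran from 5.40 to 6.79 in knockout mice on high-fat diet, against 5.71 to 7.80 in wild-type mice on that diet, and its part in the members' values was not tested.

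The members were also counted by subunit and by origin, beside the 19.7% of all genes that fell in knockout mice and the 18.1% that fell in wild-type mice. In the large subunit, 20 of 48 genes fell and 1 rose in knockout mice (41.7% fell, median -0.18), and 10 fell and 1 rose in wild-type mice (20.8% fell, median -0.11). In the small subunit, 10 of 25 fell and 0 rose in knockout mice (40% fell, median -0.16), and 6 fell and 1 rose in wild-type mice (24% fell, median -0.09). Among the 44 genes with bacterial relatives, 16 fell and 1 rose in knockout mice (36.4% fell), and 10 fell and 1 rose in wild-type mice (22.7% fell). Among the 29 that the ribosome nomenclature names as mitochondrial only, Mrps18a and Mrps18b among them, 14 fell and 0 rose in knockout mice (48.3% fell), and 6 fell and 1 rose in wild-type mice (20.7% fell). With the values as deposited, the share of each class in wild-type mice was near that of all genes and below the 26.2% of brighter genes. The median change of genes with bacterial relatives was -0.17 in knockout mice and -0.09 in wild-type mice, and that of the others was -0.14 in either.

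Some members have roles of their own. The mitochondrial ribosome carries 3 relatives of bacterial S18. Mrps18a fell by 0.31 in knockout mice (adjusted p = 0.0168) and was at -0.22 in wild-type mice (adjusted p = 0.0945), and Mrps18c fell by 0.21 in knockout mice (adjusted p = 0.0117) and by 0.19 in wild-type mice (adjusted p = 0.0254). Mrps18b was at 0.01 in knockout mice (adjusted p = 0.943) and -0.00 in wild-type mice (adjusted p = 0.984). In knockout mice the call of Mrps18a was lost without chow replicate 1 (-0.28, adjusted p = 0.0675) or 2 (-0.29, adjusted p = 0.0594), and that of Mrps18c without chow replicate 3 (-0.17, adjusted p = 0.0661). Mrpl12, a stalk protein that also binds the mitochondrial RNA polymerase, was at -0.19 in knockout mice (adjusted p = 0.111) and -0.04 in wild-type mice (adjusted p = 0.771). Mrpl58, a peptidyl-tRNA hydrolase that became part of the large subunit, fell by 0.23 in knockout mice (adjusted p = 0.0335) and was at -0.18 in wild-type mice (adjusted p = 0.111). Its knockout call was lost in 5 of the fits that left out 1 array, with changes from -0.17 (adjusted p = 0.0808, without high-fat replicate 4) to -0.24 (adjusted p = 0.058, without high-fat replicate 3). Mrps36, the dehydrogenase component, was at 0.04 in knockout mice (adjusted p = 0.801) and 0.20 in wild-type mice (adjusted p = 0.222).

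Levels of different probe sets are not comparable, since each probe set has its own brightness, and the following means only place the members on the arrays. The highest means over the 13 arrays were those of Mrpl40 (10.5), Mrps21 (10.4), Mrpl10 (10.2) and Mrpl34 (10.1), and the lowest those of Mrps26 (6.39), Mrpl21 (6.35), Mrpl44 (6.20) and Mrps12 (5.97). A fall passed in 2 of the 4 brightest members in knockout mice, Mrpl10 and Mrpl40, and in 1 in wild-type mice, Mrpl10. Of the 4 dimmest, only Mrps26 passed, in knockout mice.

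For 12 of the 74 genes a further probe set names the same gene, and the following values come from a fit over all 35556 probe sets. The second set of Mrps5 gave -0.42 in knockout mice and -0.45 in wild-type mice, close to -0.39 in knockout mice and -0.46 in wild-type mice for the first. The second set of Mrps30, with a mean of 5.42, gave -0.18 in knockout mice (adjusted p = 0.234) and -0.32 in wild-type mice (adjusted p = 0.0462). For Mrpl10 the second set, with a mean of 6.26, gave -0.10 in knockout mice (adjusted p = 0.343) and -0.08 in wild-type mice (adjusted p = 0.508). For Mrpl47 the second, with a mean of 5.37, gave -0.22 in knockout mice (adjusted p = 0.196) and -0.08 in wild-type mice (adjusted p = 0.697). Falls of Mrpl10 and Mrpl47, and that of Mrps30 in knockout mice, were thus seen by 1 of 2 probe sets. The second set of Mrpl51 gave -0.47 in knockout mice (adjusted p = 0.0141) and -0.00 in wild-type mice (adjusted p = 0.99).

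The members' overall level was followed from array to array. Averaged over the 74 genes, the log2 value was 8.27, 8.22, 8.24 and 8.17 on the high-fat arrays of knockout mice, against 8.39, 8.43 and 8.43 on chow. It was 8.22, 8.31 and 8.20 in wild-type mice on high-fat diet, against 8.27, 8.46 and 8.32 on chow. The diets did not overlap in knockout mice and overlapped in wild-type mice, where replicate 2 was the highest array on either diet. The wild-type overlap depended on the scaling. With each array's median over genes subtracted, the wild-type values were 1.55 to 1.62 on high-fat diet, against 1.65 to 1.85 on chow. The diets then did not overlap in either genotype, and the knockout values were 1.53 to 1.60 on high-fat diet, against 1.72 to 1.78. The knockout groups averaged 8.22 ± 0.04 on high-fat diet (SD, n = 4), against 8.42 ± 0.02 on chow (SD, n = 3). The group mean in wild-type mice was 8.24 ± 0.06 on high-fat diet, against 8.35 ± 0.10 on chow (SD, n = 3 each).

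After the group means were removed, each gene was set against the mean of the other 73, as a description over 13 arrays that share 1 normalization. The median Pearson's r was 0.61, and 68 of 74 genes were above 0. Mrps30 followed the others most closely, with r = 0.93. The lowest were Mrpl19 (-0.47), Mrpl3 (-0.43) and Mrpl23 (-0.28), so Mrpl19, which rose with diet, also ran against the family within groups. Over all 13 arrays the r of Mrpl19 was -0.75. Outside the family and the lists described below, the genes whose profile over the 13 arrays was most like the members' mean were Bola3 (r = 0.968), which acts in mitochondrial iron-sulphur cluster assembly, Pigyl (0.967), 4833439L19Rik (0.966), Bsg (0.962), Pex10 (0.961), Pelo (0.960), Ndufaf7 (0.959) and 4930402H24Rik (0.959).

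**Figure D4:**
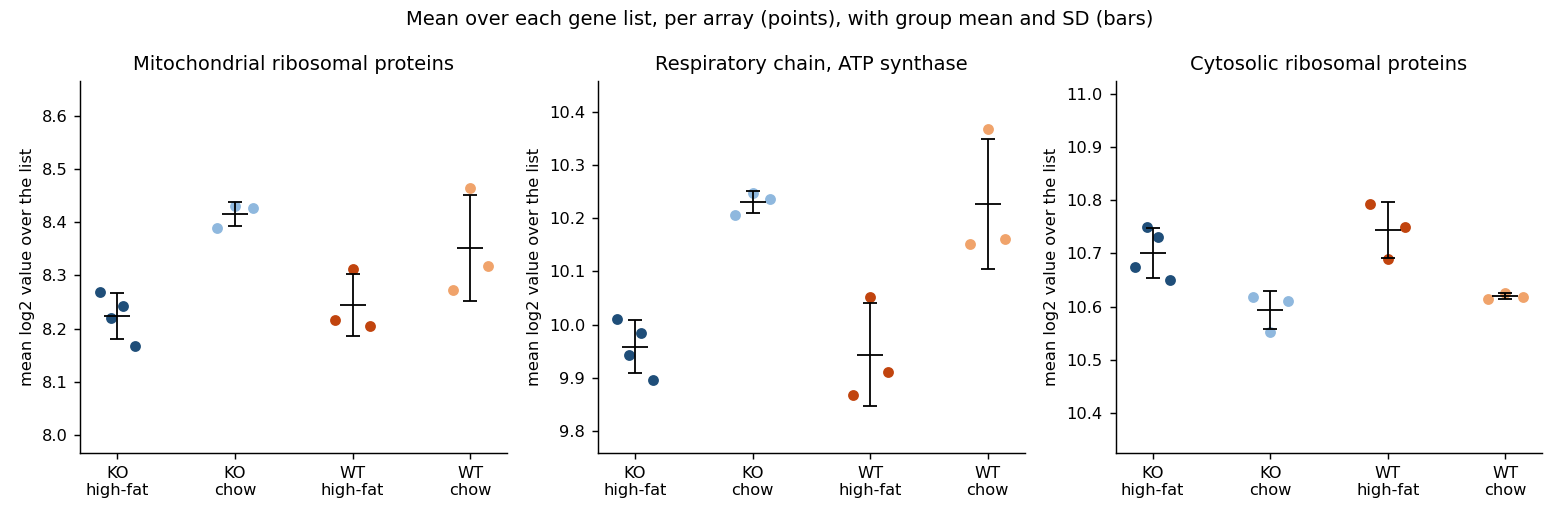
Mean log2 value over the mitochondrial ribosomal proteins (74 genes), the respiratory chain and ATP synthase (70) and the cytosolic ribosomal proteins (65), per array (points), with the group mean and SD (bars); the vertical axes span the same range and do not start at 0. The members' mean was 8.17 to 8.27 in knockout mice on high-fat diet, against 8.39 to 8.43 on chow. With the values as deposited, the cytosolic list was higher on high-fat diet in both genotypes, without overlap. With each array's median over genes subtracted, the cytosolic values overlapped in wild-type mice, at 4.00 to 4.14 on high-fat diet against 3.95 to 4.05 on chow.

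The rest of the mitochondrial translation system was described from lists of genes with known roles, all read by the same test, and each list's share is to be read against the 19.7% of all genes that fell in knockout mice and the 18.1% in wild-type mice. These shares are for the values as deposited. With arrays centred on the median of all genes, wild-type falls were more numerous in the lists of this system, and also among all genes. Of 20 genes for assembly of the mitochondrial ribosome and modification of its RNA, 10 fell and 0 rose in knockout mice (50% fell, median -0.26), and 7 fell and 2 rose in wild-type mice (35% fell, median -0.11). The GTPase Mtg1 fell by 0.76 ± 0.08 in knockout mice (adjusted p = 1.23e-05) and, in wild-type mice, by 0.53 ± 0.09 (adjusted p = 0.000405). In knockout mice Ngrn fell by 0.41, Mpv17l2 by 0.59, Noa1 by 0.47 and Malsu1 by 0.33, against falls of Ngrn by 0.46, Mpv17l2 by 0.36, Noa1 by 0.33 and Malsu1 by 0.28 in wild-type mice. The 2 rises in wild-type mice were Rpusd4, an RNA pseudouridine synthase (0.43, adjusted p = 0.0101), and the helicase Ddx28 (0.30, adjusted p = 0.0368), while in knockout mice Rpusd4 was at 0.17 (adjusted p = 0.255) and Ddx28 at 0.02 (adjusted p = 0.886).

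Of 14 translation factors, 5 fell in knockout mice (35.7%, median -0.14) and 2 in wild-type mice (14.3%, median -0.10), and 0 rose. With the values as deposited, the wild-type share was below that of all genes, but this depended on the scaling. With the arrays centred on the median of all genes, 5 fell in wild-type mice (35.7%) and 4 in knockout mice (28.6%). Mrrf, which releases the ribosome for a new round, fell by 0.53 ± 0.09 in the knockout (adjusted p = 0.000658) and 0.50 ± 0.10 in wild-type mice (adjusted p = 0.00152). Mtfmt, which formylates the initiator tRNA, fell by 0.21 in knockout and 0.36 in wild-type mice. The elongation factor Tufm fell by 0.37 in knockout mice (adjusted p = 0.00617) and stood at -0.23 in wild-type mice (adjusted p = 0.0823). Gfm1, another elongation factor, was at -0.05 in knockout (adjusted p = 0.745) and -0.07 in wild-type mice (adjusted p = 0.7).

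Of 19 mitochondrial aminoacyl-tRNA synthetases and related enzymes, 7 fell in knockout mice (36.8%, median -0.22), and 5 fell and 1 rose in wild-type mice (26.3% fell, median -0.10). Iars2 fell by 0.46 in both genotypes, and Gatb, a subunit of the amidotransferase that makes glutaminyl-tRNA, fell by 0.63 in knockout and 0.39 in wild-type mice. The rise in wild-type mice was Wars2 (0.29, adjusted p = 0.0406). Of 15 genes of mitochondrial transcription and RNA stability, 5 fell in knockout mice (33.3%) and 4 in wild-type mice (26.7%). Hsd17b10, part of mitochondrial RNase P, fell by 0.82 ± 0.05 in knockout mice (adjusted p = 2.29e-07) and, in wild-type mice, by 0.91 ± 0.06 (adjusted p = 1.19e-07), more than any of the 74 ribosomal genes. Prorp, the nuclease of the same enzyme, fell by 0.48 in knockout and 0.41 in wild-type mice, and Tfb2m, a transcription factor of the organelle, by 0.28 in knockout and 0.34 in wild-type mice. Tfam, which packages mitochondrial DNA, was at 0.04 in knockout (adjusted p = 0.768) and 0.06 in wild-type mice (adjusted p = 0.619). Polrmt, the RNA polymerase, was at -0.20 in knockout (adjusted p = 0.0586) and -0.08 in wild-type mice (adjusted p = 0.49).

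Ribosomal proteins that do not carry the family's symbol were measured for 3 genes. Dap3, a small-subunit GTP-binding protein, fell by 0.22 in knockout mice (adjusted p = 0.0305) and was at -0.17 in wild-type mice (adjusted p = 0.0972). Chchd1 was at -0.06 in knockout and -0.01 in wild-type mice, and Ptcd3 at 0.04 in knockout and -0.08 in wild-type mice. No mitochondrially encoded gene was among the named genes, so the ribosome's own RNAs and products were not analysed here.

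The ribosomal genes were set beside the machinery that the organelle's ribosome supplies. Of 70 nuclear-encoded genes of the respiratory chain and ATP synthase, 43 fell and 0 rose in knockout mice (61.4% fell, median -0.27), and 44 fell and 1 rose in wild-type mice (62.9% fell, median -0.25). With the arrays centred on the median of all genes, 44 fell in knockout mice (62.9%) and 56 in wild-type mice (80%). The complex I subunit Ndufb8 fell by 0.69 ± 0.08 in knockout mice (adjusted p = 1.59e-05) and by 0.79 ± 0.08 in wild-type mice (adjusted p = 6.67e-06). Sdhb of complex II fell by 0.53 in knockout and 0.54 in wild-type mice, and Uqcr11 of complex III fell by 0.86 in knockout and 0.68 in wild-type mice. The members' median was -0.16 beside -0.27 for this list in knockout mice, and -0.09 beside -0.25 in wild-type mice, and the difference between the lists was not tested.

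Of 65 cytosolic ribosomal proteins, 22 rose and 1 fell in knockout mice (33.8% rose, against 14.5% of all genes, median 0.12), and 20 rose and 0 fell in wild-type mice (30.8% rose, against 17.7% of all genes, median 0.14). The other 42 genes in knockout mice and 45 in wild-type mice did not pass. Rpl23 rose by 0.26 in knockout and 0.28 in wild-type mice and Rps3 by 0.31 in knockout and 0.33 in wild-type mice. With the arrays centred on the median of all genes, 16 rose in knockout mice (24.6%, against 13.9% of all genes, median 0.11). With the same centring 12 rose in wild-type mice (18.5%, against 15.3% of all genes, median 0.08), a share near the background. Of 17 genes of mitochondrial protein import, 3 rose and 3 fell in knockout mice, and 2 rose and 3 fell in wild-type mice (17.6% fell in either). Timm8a1, a chaperone of the space between the membranes, rose by 0.81 in knockout and 0.90 in wild-type mice, and Pmpcb, of the peptidase that trims imported proteins, fell by 0.34 in knockout and 0.41 in wild-type mice.

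**Figure D5:**
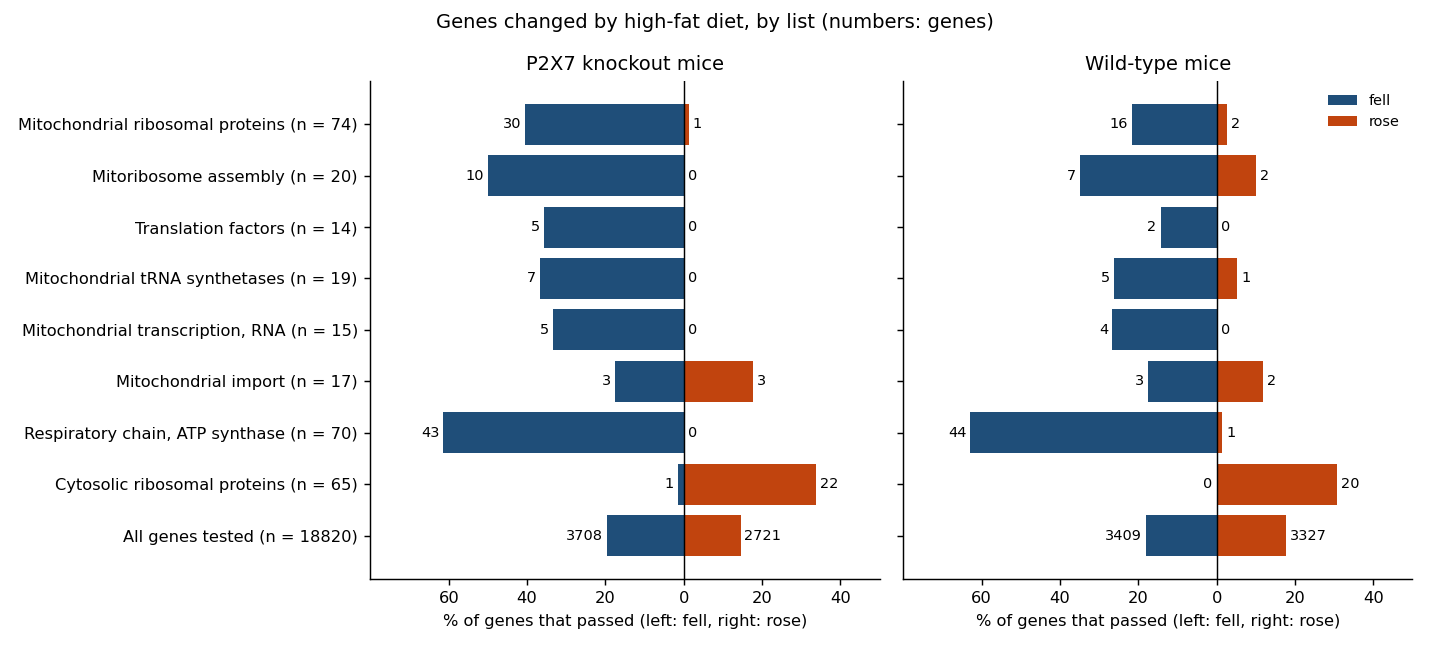
Percent of genes in each list that fell (blue bars, to the left) or rose (orange bars, to the right) with high-fat diet at an adjusted p below 0.05, in knockout mice (left panel) and wild-type mice (right panel); numbers beside the bars count genes. The mitochondrial ribosomal proteins had 30 falls and 1 rise in knockout mice, and 16 falls and 2 rises in wild-type mice; the respiratory chain had 43 falls in the knockout and 44 in the wild type, and the cytosolic ribosomal proteins 22 rises in the knockout and 20 in the wild type.

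Of 11 nuclear regulators of mitochondrial genes, 2 rose and 1 fell in knockout mice, and 4 rose and 2 fell in wild-type mice. In knockout mice 18.2% rose and 9.09% fell, against 14.5% and 19.7% of all genes. In wild-type mice 36.4% rose and 18.2% fell, against 17.7% and 18.1% of all genes. The knockout rises and the wild-type falls were thus near the background, and the list is short. The rises in knockout mice were Gabpb1, a partner of GABPA (0.33 ± 0.08, adjusted p = 0.00526), and the nuclear receptor Esrrg (0.54 ± 0.16, adjusted p = 0.0189). In wild-type mice Gabpb1 was at 0.21 (adjusted p = 0.0667) and Esrrg rose by 0.51 (adjusted p = 0.033). The coactivator Ppargc1a was at -0.44 in knockout mice (adjusted p = 0.0878) and fell by 1.14 ± 0.20 in wild-type mice (adjusted p = 0.000472). Its relative Ppargc1b fell by 0.41 in knockout and 0.57 in wild-type mice. Pprc1, the third of these coactivators, was at 0.02 in knockout mice (adjusted p = 0.911) and rose by 0.52 in wild-type mice (adjusted p = 0.00231). Myc was at 0.26 in knockout mice (adjusted p = 0.143) and rose by 0.56 in wild-type mice (adjusted p = 0.00597).

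Markers of cell types moved with diet alongside these genes. Of the 10 adipocyte markers, 7 fell and 1, Lep, rose in knockout mice, and 8 fell and 1 rose in wild-type mice. Their mean log2 value was 10.77 to 11.05 in knockout mice on high-fat diet, against 11.44 to 11.51 on chow, and 10.59 to 11.04 in wild-type mice on high-fat diet, against 11.32 to 11.58 on chow. Of the 10 macrophage markers, 9 rose and 1 fell in either genotype. Their mean was 10.82 to 10.98 in knockout mice on high-fat diet, against 9.06 to 9.53 on chow, and 10.82 to 11.16 in wild-type mice on high-fat diet, against 8.86 to 9.29 on chow. Within groups, the array with the highest members' mean also had the highest adipocyte mean in the knockout high-fat group (replicate 1, 8.27 and 11.05), in wild-type mice on high-fat diet (replicate 2, 8.31 and 11.04) and in wild-type mice on chow (replicate 2, 8.46 and 11.58). It did not in knockout mice on chow, where replicate 2 had the highest members' mean (8.43) and replicate 3 the highest adipocyte mean (11.51, against 11.49 in replicate 2). Other lists followed the members' mean in the same way. In every group, the array with the highest members' mean also had the highest endothelial and brown adipocyte means and the lowest macrophage mean. In knockout mice on chow these were 10.05, 5.78 and 9.06. Cidea is on both the adipocyte and the brown adipocyte list, so these lists are not separate.

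All 6 mesothelial markers fell and all 5 markers of dividing cells rose in either genotype. Of the 5 endothelial markers, 2 fell in knockout mice and 4 in wild-type mice. Of the 5 brown adipocyte markers, 1 rose in knockout mice (median 0.28) and 3 rose in wild-type mice (median 0.76), opposite to most of the members. The estimates of these brown adipocyte markers ran from -0.38 to 2.78 in knockout mice and from -0.34 to 2.20 in wild-type mice. The list's mean therefore need not stand for most of its genes. Their mean was 6.03 to 6.44 in knockout mice on high-fat diet, against 5.47 to 5.78 on chow. In wild-type mice it was 5.75 to 6.84 on high-fat diet, against 5.22 to 5.85 on chow, where the diets overlapped. Of the 5 liver markers, 0 passed in knockout mice (median -0.37) and 2 fell in wild-type mice (median -1.48). Of the 6 markers of T and B cells, 0 passed in either genotype.

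Muscle markers were dim and lower on high-fat diet. Of the 5, 2 fell in knockout mice and 1 in wild-type mice. Their mean was 5.03 to 5.14 in knockout mice on high-fat diet, against 5.22 to 5.39 on chow, and in wild-type mice 5.03 to 5.17 on high-fat diet, against 5.23 to 5.51 on chow. Of the 3 markers of epididymis and testis, 1, Lcn5, fell in knockout mice (-0.36, adjusted p = 0.00477) and 0 passed in wild-type mice. Their mean was 4.37 to 4.52 in knockout mice on high-fat diet, against 4.65 to 4.69 on chow. It was 4.48 to 4.57 in wild-type mice on high-fat diet, against 4.58 to 4.71 on chow. Probe sets have no true zero, so no marker reads 0 on these arrays. The part of these cell types in the members' values was not tested.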

How the data were processed

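RNA of mouse epididymal fat was hybridised to 13 arrays, labelled from 100 ng of total RNA each. The authors deposited log2 intensities, normalised with RMA (robust multi-array average) per the submitters' processing notes. The software version and background settings are not given in the sources used here. Of 35556 probe sets, 21218 name 1 gene, 1881 several and 12457 none in the platform annotation. The probe set with the highest mean stood for each of 18820 genes. All 74 ribosomal symbols matched RefSeq by Entrez ID.

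limma 3.58.1 (R 4.3.3) was fitted to the 4 group means over all 13 arrays with an intensity trend, p-values were adjusted by Benjamini-Hochberg over all genes, and the threshold was 0.05. The method was tested on simulated data. The number of arrays limits the precision. The members and lists were chosen with earlier results of these data known. Named members were, for each diet comparison, the 12 largest falls and rises that passed. For each genotype comparison and the interaction, the 4 members with the smallest p were named when none passed. The 4 brightest and 4 dimmest members were named too, and up to 4 genes of each list by p, the examples in the text being taken from these. Other genes were named for their role after their values were seen. Subunits and bacterial relatives follow the ribosome nomenclature. The samples were not treated as paired by replicate number. Among 18 same-numbered pairs the correlation of deviations ran from -0.30 to 0.22 (median 0.02), and 6 were above 0.1. Among 45 pairs with different numbers it ran from -0.41 to 0.53 (median -0.01), and 10 were above 0.1. So few pairs cannot exclude a pairing. The alternatives tried were other scalings, variance models and array weights, fewer groups, no dim genes, other probe set rules, a minimum fold, a block for the replicate number, and leaving out 1 array at a time.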

Additional observations from a re-analysis of the deposited data

Results flagged for a closer look

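In the 4 arrays of knockout mice on high-fat diet, 7 of the 74 genes had 1 array far from the other 3, and about 1 group in 20 is expected to do so by chance. Replicate 4 was the highest for Mrpl18, at 8.90 against 8.65 to 8.68 on the other arrays. The same array was the lowest for Mrpl4 (9.20, others 9.35 to 9.37), Mrps11 (7.51, others 7.67), Mrps2 (7.82, others 7.89) and Mrps28 (7.03, others 7.29 to 7.32). Replicate 2 was the highest for Mrpl19, at 8.37 with the others at 8.17 to 8.19. Replicate 1 was the highest for Mrps31, at 7.36 with the others at 7.27 to 7.28.

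A probe set that names both Gcfc2 and Mrpl19, and so was left out of the gene-level test, rose by 0.62 with high-fat diet in knockout mice (limma adjusted p = 0.0108 over all probe sets). In wild-type mice it was at 0.40 (adjusted p = 0.0995). The probe set that names Mrpl19 alone rose by 0.23 in knockout mice and 0.44 in wild-type mice.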

How the results depend on the processing

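The members' median diet change was below 0 in both genotypes under all alternatives run. In knockout mice, 30 fell and 1 rose, centring arrays on the median of all genes or of brighter genes gave 31 and 27 falls, and a minimum fold of 1.2 gave 1 fall and 0 rises. In wild-type mice, 16 fell and 2 rose. Centring arrays on the median of all genes or of brighter genes gave 28 and 27 falls, fitting only the 2 groups compared gave 10, and a minimum fold of 1.2 gave 0 falls and 0 rises. Array weights, and fitting only the 2 groups, gave 1 rise. Leaving out 1 array at a time gave 20 to 32 falls and 0 to 1 rises in knockout mice, and 10 to 20 falls and 1 to 3 rises in wild-type mice. With the replicate number as a block, 22 fell in knockout mice and 18 in wild-type mice, and whether the numbers pair the samples is not known. In the genotype comparisons and the interaction, 0 members passed under any alternative. Over 3984 refits of single members, 3748 kept their side of the threshold, 148 lost the call, 88 gained one and 0 reversed. Dim probe sets, such as those of Mrps12 and Mrpl44, have larger standard errors. With 3 or 4 arrays in a group, the smallest falls that passed were 1.12-fold in knockout mice and 1.14-fold in wild-type mice. The causes of these differences were not tested. The counts in this section are of members only, and the share of all genes that passed can move with the processing too.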

Other observations

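The 4 family symbols read only by probe sets that name a second gene are given as values from the fit over all probe sets. The set naming Rrnad1 and Mrpl24 fell by 0.21 in knockout mice (limma adjusted p = 0.0162) and was at -0.03 in wild-type mice (adjusted p = 0.822). The set naming Mrps6 and Slc5a3 was at -0.25 in knockout mice (adjusted p = 0.129) and -0.32 in wild-type mice (adjusted p = 0.0679). The sets naming Mrpl43 and Sema4g, and Ccdc142 and Mrpl53, were at 0.05 and -0.10 in knockout mice and at 0.06 and 0.05 in wild-type mice. Which of the genes each set reads was not tested.

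Mrpl46 and Mrps11 lie head to head on chromosome 7, so that their RefSeq promoter windows (chr7:78783040-78783339, minus strand, and chr7:78782881-78783180, plus strand, GRCm38.p6) overlap. With high-fat diet Mrpl46 was at -0.14 in knockout mice and 0.05 in wild-type mice (adjusted p = 0.679), and Mrps11 at -0.08 in knockout mice and 0.11 in wild-type mice (adjusted p = 0.435), and neither passed in limma in either genotype.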
